A study of Mus musculus with 5 samples.

Results

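Vegfa, the gene for vascular endothelial growth factor A, was examined together with 38 genes of the hypoxia response and of glucose use in MG5 cells, a mouse microglial line, after exposure to retinoid X receptor (RXR) agonists. The 39 genes were picked by symbol in the deposited mm10 gene table of 45777 genes, and genes averaging 20 counts or more per library were kept. This left 37 genes, of 15462 that were tested: Vegfa, 7 HIF subunits and regulators, 8 HIF targets, 2 glucose transporters, 16 genes of glycolysis and 3 genes of lactate and pyruvate handling. The members left out were Adm, with 3 counts under 6OHA, 8, 9 and 8 under BEX and 0 in untreated cells, and Aldoc, with 7 counts under 6OHA, 7, 0 and 5 under BEX and 0 in untreated cells. Their mean counts were 5.6 and 3.8, and the kept gene nearest the limit, Egln3, had a mean count of 26.0.

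Poly-A RNA was sequenced from cells exposed for 6 h to 10 µM 6OHA (replicate 2 alone), from cells exposed equally long to 10 µM bexarotene, called BEX (replicates 1, 2 and 3), and from untreated cells (replicate 3 alone), with 1 library per replicate. 6OHA is known here only by its code name, and the study's title names it as an RXR agonist to be compared with BEX, an RXR agonist in clinical use. All cells were labelled wild type and grew in a mix of DMEM and medium conditioned by A1 cells, an astrocyte-like mouse line. No vehicle or time is given for the untreated library, so the agents cannot be told apart from their handling, and nothing says whether the BEX libraries came from separate cultures, so p-values measure only the spread between those libraries. With 1 library of 6OHA and 1 of untreated cells, that spread was taken as theirs, and both comparisons with untreated cells share the 1 untreated library.

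HIF transcription factors pair an oxygen-labile alpha subunit (Hif1a or Epas1) with the stable partner Arnt. In oxygen, the prolyl hydroxylases Egln1, Egln2 and Egln3 mark the alpha subunit, and the Vhl ubiquitin ligase then removes it, so that HIF is regulated largely at the protein level. In hypoxia the alpha subunit persists and raises a shared set of genes: Vegfa, glucose transporters, most glycolytic enzymes, the lactate exporter Slc16a3, Pdk1 and the Egln3 hydroxylase. RXR acts as the partner of other nuclear receptors, among them PPARs and LXRs. Microglia are brain macrophages, which use glycolysis heavily on activation.

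Libraries held between 33823181 and 40545305 counts, and a count of 3 in a library equalled 0.0743 to 0.0885 CPM, the unit used here for counts scaled to library size and TMM factors. All 12 microglia and macrophage markers examined were detected in every library, with Csf1r between 2893 and 3032 CPM. Of these 12, 3 were called lower under 6OHA and 0 higher, and 4 lower and 2 higher under BEX. The shares called were 25% and 50%, beside 14.8% and 13.6% of all tested genes. Cx3cr1 had 23.1 CPM under 6OHA, 31.1 to 33.9 CPM under BEX and 33.2 CPM in untreated cells. Both Spi1 (-0.31 under 6OHA and -0.24 under BEX) and Fcgr3 (-0.31 and -0.35) were lower under both agonists. Called under BEX alone, Tmem119 (0.32 on the log2 scale) and Itgam (0.12) were higher, and Cd68 (-0.25) and P2ry12 (-0.20) lower. Astrocyte (Aqp4), neuron (Rbfox3), oligodendrocyte (Mog, Olig2), fibroblast (Col1a1, Col1a2, Col3a1) and endothelial (Tek, Cldn5) markers were at 0 in every library. The 7 astrocyte markers summed to 15.8 CPM under 6OHA, 17.9 to 20.5 CPM under BEX and 24.0 CPM in untreated cells, of which Slc1a2 gave 3.04, 2.90 to 4.11 and 7.08 CPM. The 5 neuron markers summed to 9.85 CPM under 6OHA, 8.73 to 9.62 CPM under BEX and 13.5 CPM in untreated cells, and the 5 oligodendrocyte markers, nearly all Mbp, to 101 CPM, 101 to 104 CPM and 86.5 CPM. The 5 endothelial markers, nearly all Kdr, summed to 216 CPM under 6OHA, 189 to 192 CPM under BEX and 240 CPM in untreated cells. The part of these shifts in the results was not tested.

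The promoter windows of 4 members that were higher under both agonists are shown here, because HIF binds the core letters ACGTG or GCGTG. Each is the 250 bases before an annotated transcript start (the outermost in the table), from RefSeq GRCm38.p6, the assembly named mm10 in the files, written 5′ to 3′ on the gene's strand. Capitals mark ACGTG or GCGTG read on either strand.
Vegfa, chr17:46032378-46032627, minus strand: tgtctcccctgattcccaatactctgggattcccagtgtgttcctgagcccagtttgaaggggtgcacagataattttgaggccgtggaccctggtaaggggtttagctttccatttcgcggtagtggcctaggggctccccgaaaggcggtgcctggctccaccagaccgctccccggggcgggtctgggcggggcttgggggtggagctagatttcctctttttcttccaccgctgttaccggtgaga
Hif1a, chr12:73907617-73907866, plus strand: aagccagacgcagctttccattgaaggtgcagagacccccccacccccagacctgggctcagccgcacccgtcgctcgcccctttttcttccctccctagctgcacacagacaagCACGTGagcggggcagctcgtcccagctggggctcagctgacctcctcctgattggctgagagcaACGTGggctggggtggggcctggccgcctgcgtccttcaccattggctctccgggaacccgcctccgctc
Bnip3, chr7:138909507-138909756, minus strand: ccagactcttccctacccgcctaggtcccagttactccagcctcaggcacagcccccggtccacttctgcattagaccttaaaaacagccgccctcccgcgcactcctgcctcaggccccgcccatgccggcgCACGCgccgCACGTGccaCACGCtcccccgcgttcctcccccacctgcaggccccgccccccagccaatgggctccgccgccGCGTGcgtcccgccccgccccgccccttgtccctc
Kdm3a, chr6:71632918-71633167, minus strand: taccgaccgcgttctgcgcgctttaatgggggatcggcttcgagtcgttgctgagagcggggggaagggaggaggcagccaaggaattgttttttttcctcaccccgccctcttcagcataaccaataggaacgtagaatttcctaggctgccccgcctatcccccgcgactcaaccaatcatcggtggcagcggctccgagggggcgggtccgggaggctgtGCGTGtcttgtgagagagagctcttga
The Vegfa window held 0 matches, the Hif1a window 3, the Bnip3 window 5 and the Kdm3a window 1. Bases further upstream were not searched, so these counts cover the windows alone and not the whole promoter. The palindrome CACGTG counts once on each strand. A second Vegfa window, before an internal start at chr17:46025164-46025413, held 1 ACGTG and 1 GCGTG. Further Kdm3a windows, at chr6:71632687-71632936 and chr6:71609140-71609389, held 0 matches each. The Hif1a window lies inside the annotated gene, which starts at chr12:73901324. Windows were in the table for 33 of the 37 kept members (not for Epas1, Ndrg1, Slc2a3 and Bnip3l), and 30 of these 33 genes had a match in at least 1 window. Of their 51 windows 39 (76.5%) held a match, against 12679 of 32851 windows of all genes (38.6%). Direct repeats of the half-site AGGTCA with 1 base between the copies, the spacing known for RXR with PPAR, and with 4 bases between them, the spacing known for RXR with LXR, were searched as exact letters on both strands. They were in 0 of the 51 windows and in 0.0335% and 0.0152% of all windows. A match describes the letters only.

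Vegfa (Entrez 22339, chr17:46016993-46032377), which encodes a secreted growth factor for blood vessels, was the member that changed most under either agonist. It had 4209 counts (122 CPM) under 6OHA, 5108, 5657 and 6138 counts (151, 156 and 152 CPM) under BEX, and 680 counts (19.1 CPM) in untreated cells. The BEX libraries lay close together and above the 6OHA library, and all 4 treated libraries lay far above the untreated one. The rise was 6.38-fold under 6OHA (log2 fold change 2.67 ± 0.10 SE, edgeR quasi-likelihood test, p adjusted by Benjamini-Hochberg across the 15462 genes = 6.94e-10). Under BEX it was 8.0-fold (3.00 ± 0.08, adjusted p = 3.24e-11). Per transcript length, Vegfa stood at 79.1 TPM under 6OHA, 98.1 ± 1.91 TPM under BEX (SD, n = 3) and 11.8 TPM in untreated cells. Vegfa was called higher under both agonists with each of the other normalizations, tools, filters and left-out libraries tried. In RNA from a whole culture, fewer cells of a type and less RNA per cell cannot be told apart.

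**Figure D1:**
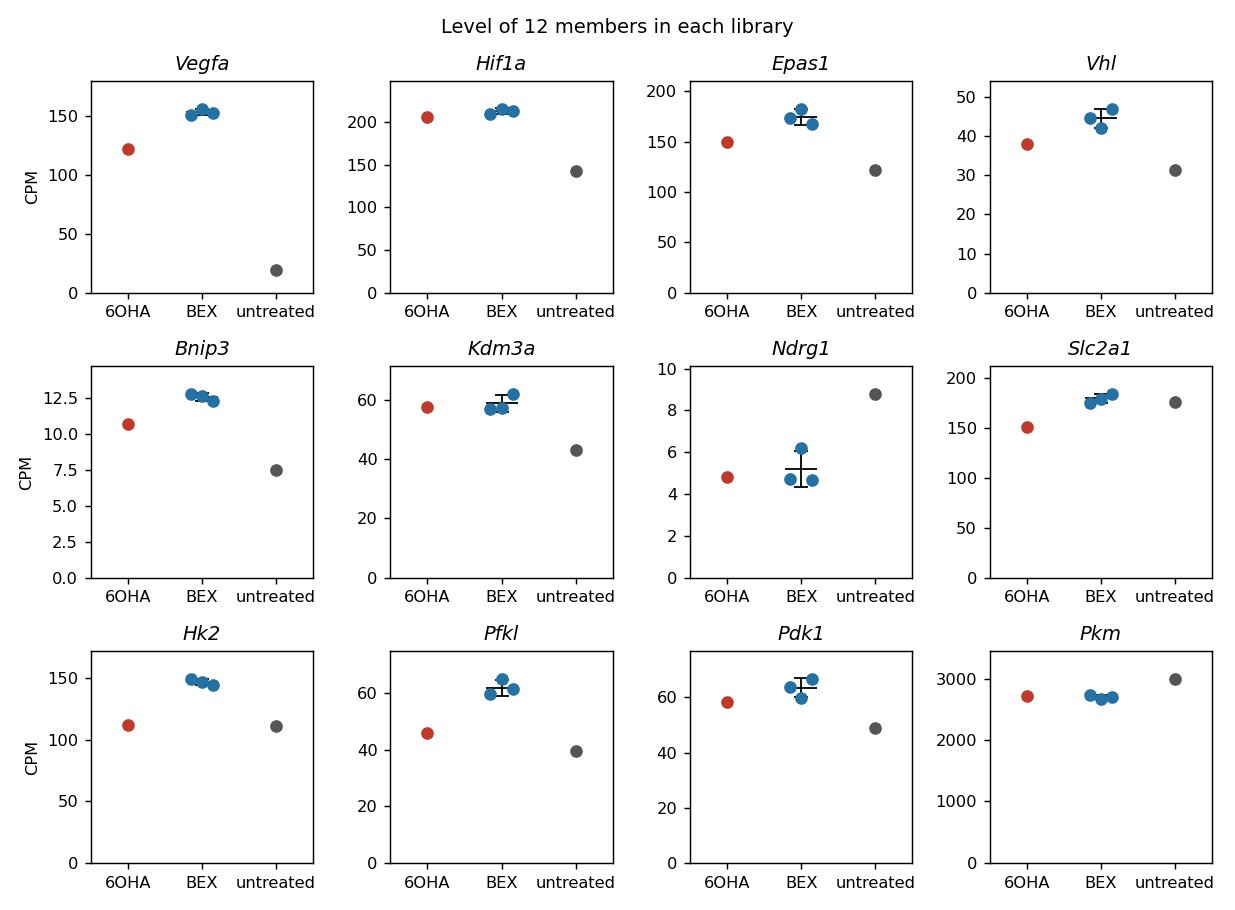
CPM (TMM-scaled, axis from 0) of 12 members in each library: 6OHA in red, BEX in blue and untreated in grey, with a black bar at the BEX mean and whiskers of 1 SD (n = 3). Vegfa stands at 122 CPM under 6OHA and 151 to 156 CPM under BEX, against 19.1 CPM in untreated cells, while Hk2 and Pfkl are highest in the BEX libraries and Ndrg1 lies lower in all treated libraries.

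Against untreated cells, 10 of the 37 kept members (27%) were called under 6OHA at an adjusted p under 0.05, where 14.8% of all tested genes were called. Of these, 5 were higher (Vegfa, Hif1a, Epas1, Bnip3 and Kdm3a; 7.59% of all genes) and 5 lower (Egln2, Ndrg1, Slc2a1, Aldoa and Pkm; 7.19% of all genes). Under BEX, 13 members (35.1%) were called, where 13.6% of all tested genes were called. Those higher numbered 10 (Vegfa, Hif1a, Epas1, Vhl, Bnip3, Kdm3a, Hk2, Pfkl, Eno1 and Pdk1; 7.55% of all genes) and those lower 3 (Ndrg1, Pfkfb3 and Pkm; 6.03% of all genes). The count under 6OHA was 6 without BEX replicate 1 and 13 without BEX replicate 2 or 3, and it was 2 (Vegfa and Hif1a) in tests on log2 TPM and without a filter on low counts. The split under 6OHA also depended on the fit: with offsets for GC content and length 9 members were called, 8 higher and 1 lower, and with the older edgeR method 8 were called, 6 higher and 2 lower.

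No other member came near Vegfa in size. The median log2 fold change of the 8 kept HIF targets was 0.11 under 6OHA and 0.13 under BEX, and the Vegfa value exceeded it by 2.57 and 2.87. Library by library, the excess was 2.57 in the 6OHA library and 2.90, 2.87 and 2.86 in the BEX libraries, each set against the untreated library. In each of these 4 libraries 0 of the 36 other kept members had a log2 ratio at or above that of Vegfa. The largest other value under 6OHA was 0.53 (Hif1a), and under BEX it was 1.08 (Egln3, from 15 counts in untreated cells, not called). Over the 36 other members the median was 0.07 under 6OHA and 0.10 under BEX, beside -0.003 and -0.001 over all tested genes. These medians describe the list and carry no test.

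**Figure D2:**
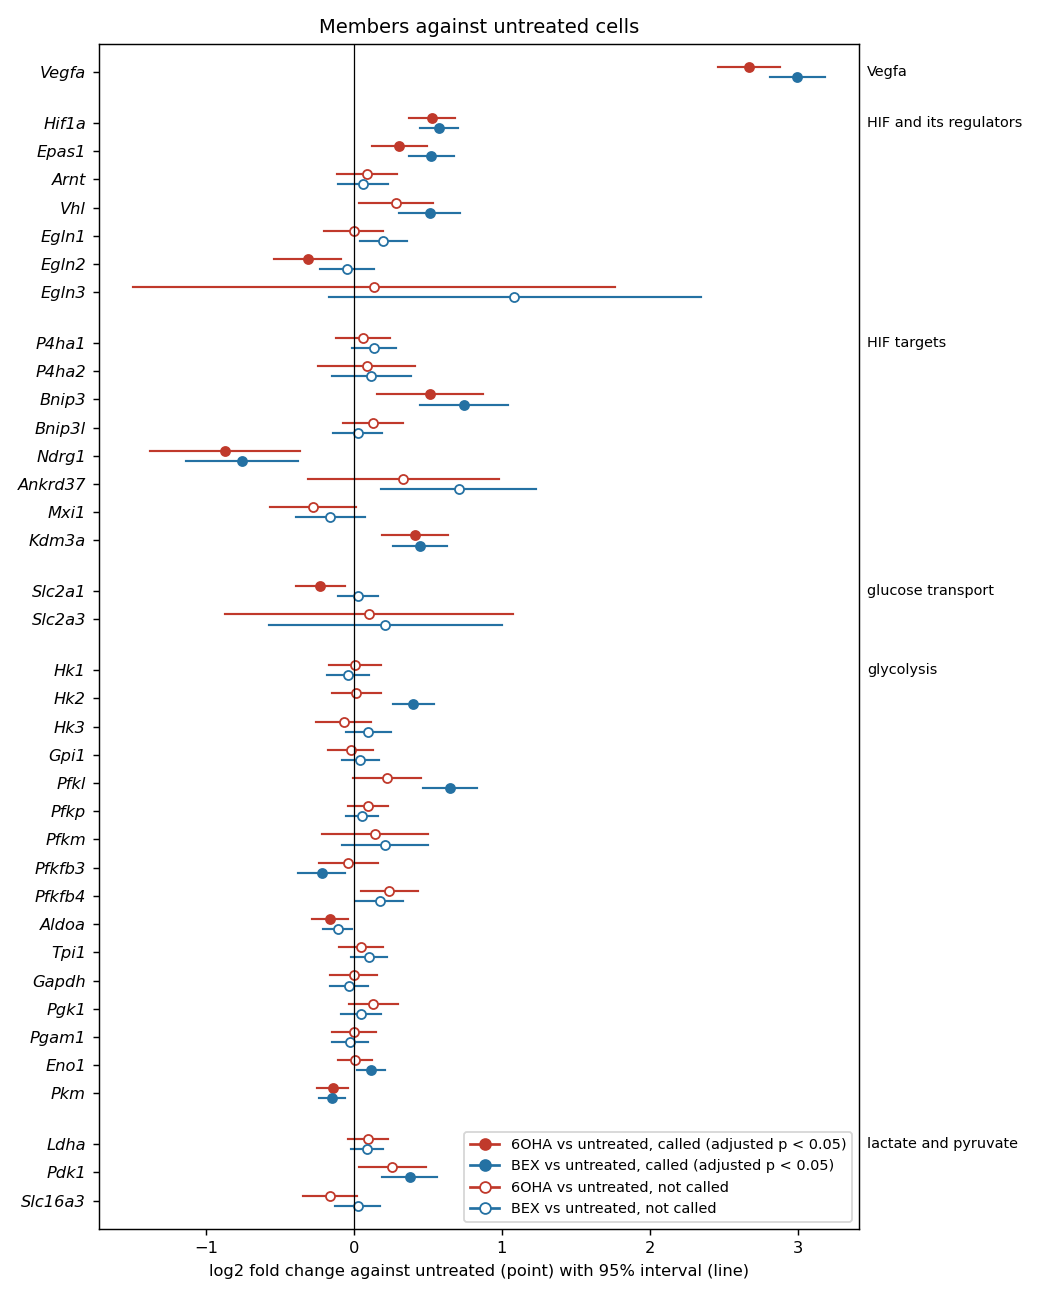
Log2 fold change against untreated cells of the 37 kept members, grouped by role, with 95% intervals as lines, 6OHA in red above BEX in blue. Filled points were called at an adjusted p under 0.05. Vegfa lies at 2.67 and 3.00, and all other called members lie between -0.87 (Ndrg1, 6OHA) and 0.74 (Bnip3, BEX).

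Among the HIF subunits and their regulators, the transcripts of both alpha subunits were higher under both agonists, and Arnt was not called. Hif1a had 205 CPM under 6OHA, 209, 216 and 213 CPM under BEX and 142 CPM in untreated cells. The treated libraries lay within a few percent of each other and above the untreated one. Hif1a rose 1.44-fold under 6OHA (log2 0.53 ± 0.07, adjusted p = 8.66e-05) and 1.49-fold under BEX (0.58 ± 0.06, adjusted p = 4.46e-06), and it was called with every alternative tried. Epas1, the alpha subunit best known from endothelial cells and macrophages, had 150 CPM under 6OHA, 173, 183 and 168 CPM under BEX and 122 CPM in untreated cells. It rose less under 6OHA (0.31 ± 0.09, adjusted p = 0.0123) than under BEX (0.52 ± 0.07, adjusted p = 5.28e-05) (difference -0.22, adjusted p = 0.0409). This difference was called in 8 of 13 alternatives. The call for 6OHA against untreated cells was lost in tests on log2 TPM and without a filter on low counts (adjusted p between 0.0588 and 0.0737). By TPM, Hif1a made up 61.0% of the alpha-subunit transcripts under 6OHA, 58.5% ± 1.19 under BEX (SD, n = 3) and 57.8% in untreated cells. Arnt had 80.6 CPM under 6OHA, 77.3, 83.2 and 76.6 CPM under BEX and 75.8 CPM in untreated cells.

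Among genes that lower HIF protein, only Vhl under BEX (higher) and Egln2 under 6OHA (lower) were called against untreated cells. Vhl had 38.1 CPM under 6OHA, 44.6, 42.0 and 47.1 CPM under BEX and 31.3 CPM in untreated cells. The untreated library was the lowest, with 6OHA between it and BEX. Vhl rose 1.42-fold under BEX (0.51 ± 0.09, adjusted p = 0.00112). Under 6OHA its value was 0.28 ± 0.12 (adjusted p = 0.0868). Egln1, the main HIF hydroxylase in most cells, had 63.6 CPM under 6OHA, 72.9, 70.9 and 75.2 CPM under BEX and 63.7 CPM in untreated cells. It was called in neither comparison with untreated cells (-0.003 ± 0.09 under 6OHA, and 0.20 ± 0.07 under BEX with adjusted p = 0.057). Under BEX it was called higher in 5 of 13 alternatives. Egln2 had 28.6 CPM under 6OHA, 33.9, 34.7 and 34.5 CPM under BEX and 35.5 CPM in untreated cells. Only the 6OHA library stood apart. Egln2 fell by 0.31 ± 0.10 on the log2 scale under 6OHA (adjusted p = 0.0396), a call kept in only 4 of 12 alternatives. Its value was 0.02 (adjusted p = 0.938) once offsets for GC content and length were added. Leaving out BEX replicate 1 also ended the call (adjusted p = 0.0511). Egln3, a HIF target that is itself a hydroxylase, had 16 counts under 6OHA, 38, 31 and 30 under BEX and 15 in untreated cells. Its BEX libraries lay above the other libraries, and it was not called (1.08 under BEX, 95% interval -0.17 to 2.35).

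Of the 8 kept HIF targets, 2 rose and 1 fell under each agonist, Bnip3 and Kdm3a being higher and Ndrg1 lower in both comparisons, which share the 1 untreated library. This is 37.5% of the targets in each, where 14.8% of all tested genes were called under 6OHA and 13.6% under BEX. Bnip3, which encodes a mitochondrial protein that recruits the mitophagy machinery, had 10.7 CPM under 6OHA, 12.8, 12.7 and 12.3 CPM under BEX and 7.51 CPM in untreated cells. The treated libraries all lay above the untreated one. It rose 1.43-fold under 6OHA (0.51 ± 0.17, adjusted p = 0.0451) and 1.67-fold under BEX (0.74 ± 0.14, adjusted p = 0.00149). The 6OHA call did not hold without BEX replicate 1 (adjusted p = 0.0518), with GC and length offsets (0.0785) or with DESeq2 (0.152). It was also lost with limma-voom, on log2 TPM and without a filter on low counts, and held in 5 of 12 alternatives. Kdm3a, a histone H3 demethylase, had 57.6 CPM under 6OHA, 57.0, 57.3 and 62.0 CPM under BEX and 43.2 CPM in untreated cells. The 6OHA value lay among those of BEX. Kdm3a rose 1.33-fold under 6OHA (0.41 ± 0.10, adjusted p = 0.00852) and 1.36-fold under BEX (0.45 ± 0.09, adjusted p = 0.00125). The 6OHA call was lost in tests on log2 TPM and without a filter on low counts (adjusted p between 0.0501 and 0.0573).

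Ndrg1, a stress-responsive gene often used as a marker of hypoxia, went the other way. It had 166 counts (4.81 CPM) under 6OHA, 160, 225 and 189 counts (4.72, 6.20 and 4.68 CPM) under BEX and 313 counts (8.80 CPM) in untreated cells. All treated libraries lay below the untreated one. Ndrg1 fell to 0.547 times the untreated level under 6OHA (-0.87 ± 0.23, adjusted p = 0.0192) and to 0.590 times it under BEX (-0.76 ± 0.17, adjusted p = 0.00982). Neither call held in tests on log2 TPM (adjusted p between 0.125 and 0.147) or without a filter on low counts (0.0826 and 0.0593), and the BEX call did not hold with DESeq2 (0.0806).

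The remaining 5 targets were not called against untreated cells. Values under 6OHA were 0.06 for P4ha1 and 0.09 for P4ha2 (collagen prolyl hydroxylases), 0.13 for Bnip3l (a mitophagy receptor), 0.33 for Ankrd37 and -0.28 for Mxi1 (a partner of Max that opposes Myc). Under BEX these genes stood at 0.13, 0.12, 0.03, 0.71 and -0.16 in the same order. Ankrd37 had 137 counts under 6OHA, 208, 178 and 182 under BEX and 112 in untreated cells, with adjusted p = 0.0576 under BEX, or 0.0339 once GC and length offsets were added. It overlaps Ufsp2, which had a mean of 2747 counts, so its reads may be shared. Summed over the 8 targets, the level was 211 TPM under 6OHA, 219 ± 3.51 TPM under BEX (SD, n = 3) and 191 TPM in untreated cells.

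Glucose entry and glycolysis held mostly small values. Of the 21 members for glucose transport, glycolysis and lactate or pyruvate handling, 0 rose and 3 fell under 6OHA (Slc2a1, Aldoa and Pkm), and 4 rose and 2 fell under BEX. The shares called were 14.3% under 6OHA and 28.6% under BEX, beside 14.8% and 13.6% of all tested genes. With GC and length offsets the 6OHA split turned over, with 4 called higher (Pfkl, Pfkfb4, Eno1 and Ldha) and 0 lower, and under BEX 5 were higher and 2 lower. The median log2 fold change of the 21 members was 0.01 under 6OHA and 0.05 under BEX. The 16 glycolysis members together made up 9394 TPM under 6OHA, 9565 ± 179 TPM under BEX (SD, n = 3) and 9489 TPM in untreated cells. Without Pfkp, whose TPM did not follow its counts, the sum was 9187 TPM under 6OHA, 9438 ± 165 TPM under BEX and 9385 TPM in untreated cells. The 6OHA sum then lay below all 3 BEX libraries (9252 to 9567 TPM).

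**Figure D3:**
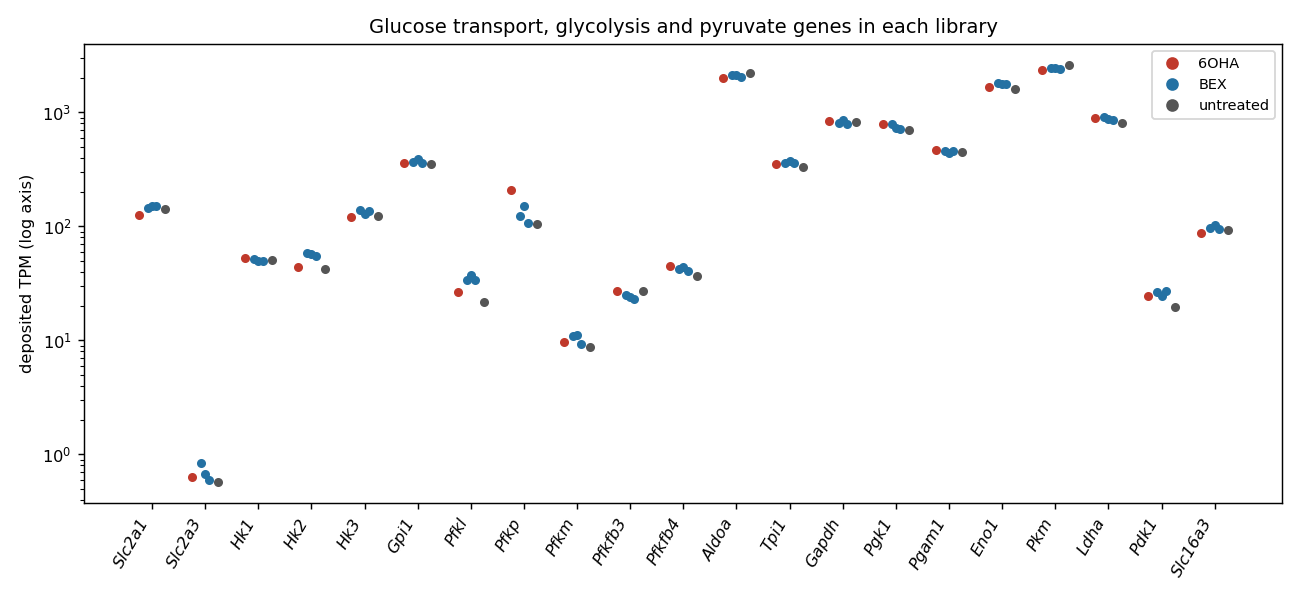
Deposited TPM (log axis) of the 21 genes of glucose transport, glycolysis and pyruvate or lactate handling, in pathway order, with the 6OHA library left, the 3 BEX libraries in the middle and the untreated library right of each position. The points of a gene nearly coincide for most genes, and the widest separations are in Pfkp (104 to 208 TPM) and Pfkl (21.9 to 37.1 TPM).

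Slc2a1 (GLUT1), the basal glucose transporter, had 151 CPM under 6OHA, 175, 179 and 184 CPM under BEX and 176 CPM in untreated cells. The 6OHA library was the only one apart. Slc2a1 fell by 0.23 ± 0.08 on the log2 scale under 6OHA (adjusted p = 0.0259) and was not called under BEX (0.03 ± 0.06). With GC and length offsets the 6OHA value was -0.14 (adjusted p = 0.179). The 6OHA call was also lost on log2 TPM and without a filter on low counts, and held in 8 of 12 alternatives. Slc2a3 (GLUT3) had 47 to 65 counts per library and gave at most 0.575% of the TPM of both transporters. It shares its position with the pseudogene Gm4482, which had a mean of 49.8 counts, and was not called.

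Among hexokinases, which trap glucose in the cell, the hypoxia- and insulin-responsive Hk2 was higher under BEX than in untreated cells. Hk2 had 112 CPM under 6OHA, 149, 146 and 144 CPM under BEX and 111 CPM in untreated cells. The 6OHA and untreated libraries were alike, and all BEX libraries lay above them. Hk2 rose 1.32-fold under BEX (0.40 ± 0.06, adjusted p = 0.000191), with every alternative tried, and its value under 6OHA was 0.02 (95% interval -0.15 to 0.18). Hk1 (0.01 under 6OHA and -0.04 under BEX) and Hk3 (-0.07 and 0.10) were not called. By TPM, Hk3 was the most abundant of these enzymes, with 55.6% of their total under 6OHA, 55.6% ± 0.98 under BEX (SD, n = 3) and 57.1% in untreated cells, and Hk2 held 20.2%, 23.6% ± 0.75 and 19.4% in that order.

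At the phosphofructokinase step, the committed step of glycolysis, the liver-type subunit Pfkl rose under BEX. Pfkl had 46.1 CPM under 6OHA, 59.6, 65.1 and 61.4 CPM under BEX and 39.6 CPM in untreated cells. The BEX libraries lay above the 6OHA library, which lay above the untreated one. Pfkl rose 1.57-fold under BEX (0.65 ± 0.09, adjusted p = 5.99e-05), with every alternative tried, and its value under 6OHA was 0.22 ± 0.11 (adjusted p = 0.131, and 0.39 with adjusted p = 0.0111 when GC and length offsets were added). The platelet-type Pfkp, with 421 CPM under 6OHA, 412, 408 and 407 CPM under BEX and 394 CPM in untreated cells, was not called. Its deposited TPM did not follow these counts: 208 TPM under 6OHA, 122, 151 and 107 TPM under BEX and 104 TPM in untreated cells. Pfkp overlaps Pitrm1 (mean 4551 counts) and Pfkm overlaps Senp1 (mean 2072 counts), and whether that bears on these values was not tested.

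The bifunctional enzymes that set fructose-2,6-bisphosphate, an activator of this step, changed little. Pfkfb3 had 62.0 CPM under 6OHA, 56.3, 54.5 and 53.4 CPM under BEX and 63.7 CPM in untreated cells. The BEX libraries all lay lower. Pfkfb3 fell by 0.22 ± 0.07 on the log2 scale under BEX (adjusted p = 0.037), and this call was lost without BEX replicate 3 (adjusted p = 0.0567), with DESeq2 (0.155), without a filter (0.0957) and on log2 TPM (0.249 and 0.256). Pfkfb4 stood at 0.24 ± 0.09 under 6OHA (adjusted p = 0.0536) and 0.17 ± 0.07 under BEX (adjusted p = 0.0895). Under 6OHA it was called higher in 6 of 12 alternatives, with an adjusted p as low as 0.00776 (GC and length offsets).

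In the later steps, the called changes of the abundant enzymes lay between -0.16 and 0.12 on the log2 scale. Pkm, pyruvate kinase of muscle and most other cells, had 2710 CPM under 6OHA, 2731, 2672 and 2706 CPM under BEX and 2996 CPM in untreated cells. The treated libraries were alike and below the untreated one. Pkm fell to 0.905 times the untreated level under 6OHA (-0.14 ± 0.05, adjusted p = 0.022) and to 0.902 times it under BEX (-0.15 ± 0.04, adjusted p = 0.0057). With GC and length offsets the 6OHA value turned to 0.07 (adjusted p = 0.306), while the BEX value was -0.10 (adjusted p = 0.0345), and the 6OHA call was also lost without BEX replicate 1 (adjusted p = 0.0726). On log2 TPM the BEX call was lost (adjusted p = 0.235 and 0.21). Aldoa, the main aldolase here, had 1453 CPM under 6OHA, 1531, 1513 and 1467 CPM under BEX and 1624 CPM in untreated cells. All treated libraries lay below the untreated one. Aldoa fell by 0.16 ± 0.06 on the log2 scale under 6OHA (adjusted p = 0.0274), which turned to 0.07 (adjusted p = 0.381) with GC and length offsets and lost its call when BEX replicate 1 was left out (adjusted p = 0.0615). Under BEX its value was -0.11 ± 0.05 (adjusted p = 0.0588).

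Eno1 (enolase) had 1382 CPM under 6OHA, 1501, 1473 and 1496 CPM under BEX and 1375 CPM in untreated cells. The BEX libraries lay above the other libraries. Eno1 rose 1.08-fold under BEX (0.12 ± 0.04, adjusted p = 0.0399), a call lost without BEX replicate 1 (adjusted p = 0.132) and kept in 7 of 13 alternatives. Under 6OHA its value was 0.01 ± 0.05 (adjusted p = 0.938), but 0.23 (adjusted p = 0.00201) with GC and length offsets. Its near copy Eno1b held 12.2% to 13% of the counts of both, so reads may be split between them. Gpi1, Tpi1, Gapdh, Pgk1 and Pgam1 were not called in either comparison with untreated cells, with values between -0.02 (Gpi1) and 0.13 (Pgk1) under 6OHA and between -0.03 (Gapdh) and 0.10 (Tpi1) under BEX. Gapdh, often used to normalise other assays, had 564 CPM under 6OHA, 536, 579 and 541 CPM under BEX and 565 CPM in untreated cells. The pseudogene Pgam1-ps2 held 28.9% to 30.2% of its counts together with Pgam1, so the level of Pgam1 is uncertain. Tpi1 overlaps Spsb2 (mean 218 counts), and Hk1 overlaps the antisense Hk1os (mean 13.8 counts).

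For the fate of pyruvate, Pdk1, a kinase that inhibits pyruvate dehydrogenase, rose under BEX. Pdk1 had 58.5 CPM under 6OHA, 63.8, 59.96 and 66.7 CPM under BEX and 48.9 CPM in untreated cells. The untreated library was the lowest. It rose 1.30-fold under BEX (0.38 ± 0.09, adjusted p = 0.00403, and 0.0509 on log2(TPM + 1)) and stood at 0.26 ± 0.10 under 6OHA (adjusted p = 0.0765). Ldha, which makes lactate, had 673 CPM under 6OHA, 687, 664 and 659 CPM under BEX and 631 CPM in untreated cells, and was not called (0.09 ± 0.06 and 0.09 ± 0.05), except under 6OHA with GC and length offsets (0.16, adjusted p = 0.0403). The lactate exporter Slc16a3 (MCT4) was not called either (-0.16 ± 0.09 and 0.02 ± 0.07), and it overlaps Csnk1d.

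Other genes of these pathways, from lists drawn up with earlier results of these data known, were read for comparison. Of 9 VEGF family members and receptors, 7 were tested. The neuropilin Nrp2, a co-receptor, was higher under both agonists (0.33 ± 0.06 under 6OHA, adjusted p = 0.000943, and 0.18 ± 0.05 under BEX, adjusted p = 0.0129). Vegfb had 22.9 CPM under 6OHA, 26.5, 28.8 and 26.3 CPM under BEX and 31.6 CPM in untreated cells, a fall under 6OHA (-0.46 ± 0.12, adjusted p = 0.0128) that was not called under BEX (-0.22 ± 0.09), with no call for the difference between the agonists (adjusted p = 0.139). Kdr, the main signalling receptor for Vegfa, was far above the other endothelial markers: Cdh5 lay between 7.76 and 9.22 CPM, Pecam1 between 1.10 and 2.01 CPM, and Tek and Cldn5 were at 0. Kdr had 206 CPM under 6OHA, 181, 182 and 177 CPM under BEX and 229 CPM in untreated cells. It fell under BEX (-0.35 ± 0.06, adjusted p = 0.000216) and was not called under 6OHA (-0.15 ± 0.07). The receptor Flt1 was not tested, with at most 10 counts in a library.

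Of 33 further genes known as HIF targets or HIF regulators, 28 were tested, and 3 were higher and 2 lower under 6OHA, while 6 were higher and 1 lower under BEX. These shares were 17.9% and 25% of the tested genes on the list, beside 14.8% and 13.6% of all tested genes. Tfrc, the transferrin receptor, was higher under both (0.45 ± 0.07 under 6OHA, adjusted p = 0.000327, and 0.37 ± 0.06 under BEX, adjusted p = 0.000227), as was Ero1l, an oxidase of protein folding (0.28 ± 0.09 and 0.43 ± 0.07). Cited2, which competes with HIF for its coactivators, was lower under both (-0.50 ± 0.12 and -0.59 ± 0.09). Mif, a cytokine-like protein, fell under 6OHA (-0.57 ± 0.10, adjusted p = 0.000648), and Pgm2 rose under BEX (0.39 ± 0.07, adjusted p = 0.000813). Lox, a collagen crosslinking enzyme singled out after its values were seen, was called higher under 6OHA by 2.60 ± 0.94 (adjusted p = 0.0395), close to the Vegfa value but at low counts. It had 36 counts under 6OHA, 17, 25 and 15 under BEX and 6 in untreated cells, with a 95% interval from 0.59 to 4.67, and was not called under BEX (1.59 ± 0.91, adjusted p = 0.213). The hypoxia genes Car9 (0.28 ± 0.34 and 0.15 ± 0.29), Hmox1 (0.02 ± 0.07 and -0.01 ± 0.06) and Bhlhe40 (-0.09 ± 0.08 and -0.06 ± 0.06), named here after their values were seen, were not called.

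Of 12 neighbours of the pyruvate step, among them the pyruvate dehydrogenase subunits and the pyruvate carriers, 11 were tested and 1 was called, the monocarboxylate transporter Slc16a7 under BEX (0.50 ± 0.13, adjusted p = 0.0121). Of 8 pentose phosphate genes, 1 was called against untreated cells, Pgls under 6OHA (-0.38 ± 0.10, adjusted p = 0.0138). Under 6OHA the shares called were 0% of the pyruvate neighbours and 12.5% of the pentose phosphate genes, beside 14.8% of all tested genes. Under BEX they were 9.09% and 0%, beside 13.6%.

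A list of 6 lipid droplet and nuclear receptor target genes was also read. All 6 were higher under 6OHA, by 0.95 to 2.04 on the log2 scale, and 5 of 6 were higher under BEX, with values from -0.13 (Abcg1, not called) to 1.87. Over all tested genes, 7.59% were called higher under 6OHA and 7.55% under BEX. Plin2, the coat protein of lipid droplets, had 1759 CPM under 6OHA, 1577, 1571 and 1563 CPM under BEX and 429 CPM in untreated cells. Hilpda, a lipid droplet protein known as a target of both HIF and PPARs, had 33.0 CPM under 6OHA, 39.6, 42.5 and 41.2 CPM under BEX and 12.4 CPM in untreated cells. For both genes every treated library lay far above the untreated one. The cholesterol exporter Abca1 rose by 1.83 ± 0.06 under 6OHA and 0.99 ± 0.05 under BEX (adjusted p = 4.91e-10 and 1.49e-08), and Cpt1a, of mitochondrial fatty acid import, by 0.95 ± 0.08 and 0.73 ± 0.06 (adjusted p = 9.27e-07 and 8.77e-07). The related exporter Abcg1 rose under 6OHA (0.98 ± 0.07, adjusted p = 4.69e-07). Plin2 rose by 2.04 ± 0.05 under 6OHA and 1.87 ± 0.04 under BEX on the log2 scale (adjusted p = 2.3e-11 and 1.46e-11). Hilpda rose by 1.41 ± 0.13 and 1.73 ± 0.11 (adjusted p = 6.53e-06 and 9.44e-08). Angptl4, a secreted inhibitor of lipoprotein lipase with the same pair of known regulators, named here after its values were seen, rose by 1.22 ± 0.17 and 1.06 ± 0.15 (adjusted p = 0.00025 and 0.000138).

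Of 6 genes of the ATF4 stress response, 0 were called under 6OHA and 4 were higher under BEX. Over all tested genes, 14.8% were called under 6OHA and 7.55% were called higher under BEX. Atf4 itself had 289 CPM under 6OHA, 390, 396 and 410 CPM under BEX and 291 CPM in untreated cells. The BEX libraries lay above the other libraries. Atf4 rose under BEX (0.45 ± 0.06, adjusted p = 2.1e-05), and so did Sesn2 (0.84 ± 0.10), Trib3 (0.63 ± 0.08) and Asns (0.28 ± 0.06), while under 6OHA Atf4 stood at -0.01 ± 0.07.

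Among called genes, 20 had a larger rise than Vegfa under 6OHA and 40 under BEX. Genes averaging 20 counts or more, leaving out numbered Gm symbols and Rik symbols, were ranked by the distance between the pairs of log2 fold changes under 6OHA and BEX. The nearest were LOC115486905 (2.47 and 2.89, distance 0.228), Tmigd3 (3.02 and 2.96, 0.345), Asb4 (2.21 and 3.01, 0.466), Zfp369 (2.74 and 2.53, 0.471) and Prss30 (2.46 and 2.52, 0.529). All of these stood below Vegfa in CPM. The best measured of them, Zfp369, had 27.0 CPM under 6OHA, 24.9, 23.3 and 21.9 CPM under BEX and 4.02 CPM in untreated cells. The pairs of values share the untreated library, so likeness between them is a description.

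Set against each other at the same dose and time, 6OHA and BEX differed in 5 of the 37 kept members (13.5%), where 6.53% of all tested genes differed. All 5 were lower under 6OHA (4.13% of all genes, with 2.4% higher): Vegfa, Epas1, Slc2a1, Hk2 and Pfkl. Among all called genes 36.7% were higher under 6OHA, and with GC and length offsets the share was 51.7%, while the members were then 1 higher (Pkm) and 4 lower. Without BEX replicate 2, 10 members were called, and on log2 TPM 0 were called.

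Vegfa, with 122 CPM under 6OHA and 151, 156 and 152 CPM under BEX, was 0.797 times as high under 6OHA as under BEX (-0.33 ± 0.06, 95% interval -0.46 to -0.19, adjusted p = 0.00322). The call was lost on log2(TPM + 1) (adjusted p = 0.0708) and log2(TPM + 0.1) (0.0639). The largest of the called differences were in Pfkl (-0.43 ± 0.08, adjusted p = 0.00452, or -0.29 once offsets for GC and length were added) and Hk2 (-0.39 ± 0.06, adjusted p = 0.00116). Slc2a1 differed by -0.25 ± 0.06 (adjusted p = 0.0115, not called with GC and length offsets at -0.17, adjusted p = 0.0663). Epas1 differed by -0.22 ± 0.07 (adjusted p = 0.0409, and 0.0563 without BEX replicate 1). The Epas1 call was also lost with limma-voom, on log2 TPM and without a filter on low counts.

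No difference was called for the other members. Their intervals carry only the spread between the BEX libraries, so they do not bound the difference between the agents. For Hif1a the difference was -0.05 (95% interval -0.18 to 0.08), for Kdm3a -0.03 (-0.21 to 0.15), for Bnip3 -0.23 (-0.50 to 0.04) and for Ndrg1 -0.11 (-0.57 to 0.35). Among glycolysis members, Pkm lay at 0.004 (-0.08 to 0.09), Gapdh at 0.03 (-0.10 to 0.16) and Ldha, which follows them, at 0.01 (-0.10 to 0.12). Vhl (-0.23), Egln1 (-0.20), Egln2 (-0.27), Hk3 (-0.17), Eno1 (-0.11) and Slc16a3 (-0.19) had intervals that left out 0 without passing the adjusted test, and Pfkfb3 did so in the other direction (0.18, 0.02 to 0.34). Egln3, with 15 to 38 counts in a library, had the widest interval (-0.95, -2.17 to 0.27).

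**Figure D4:**
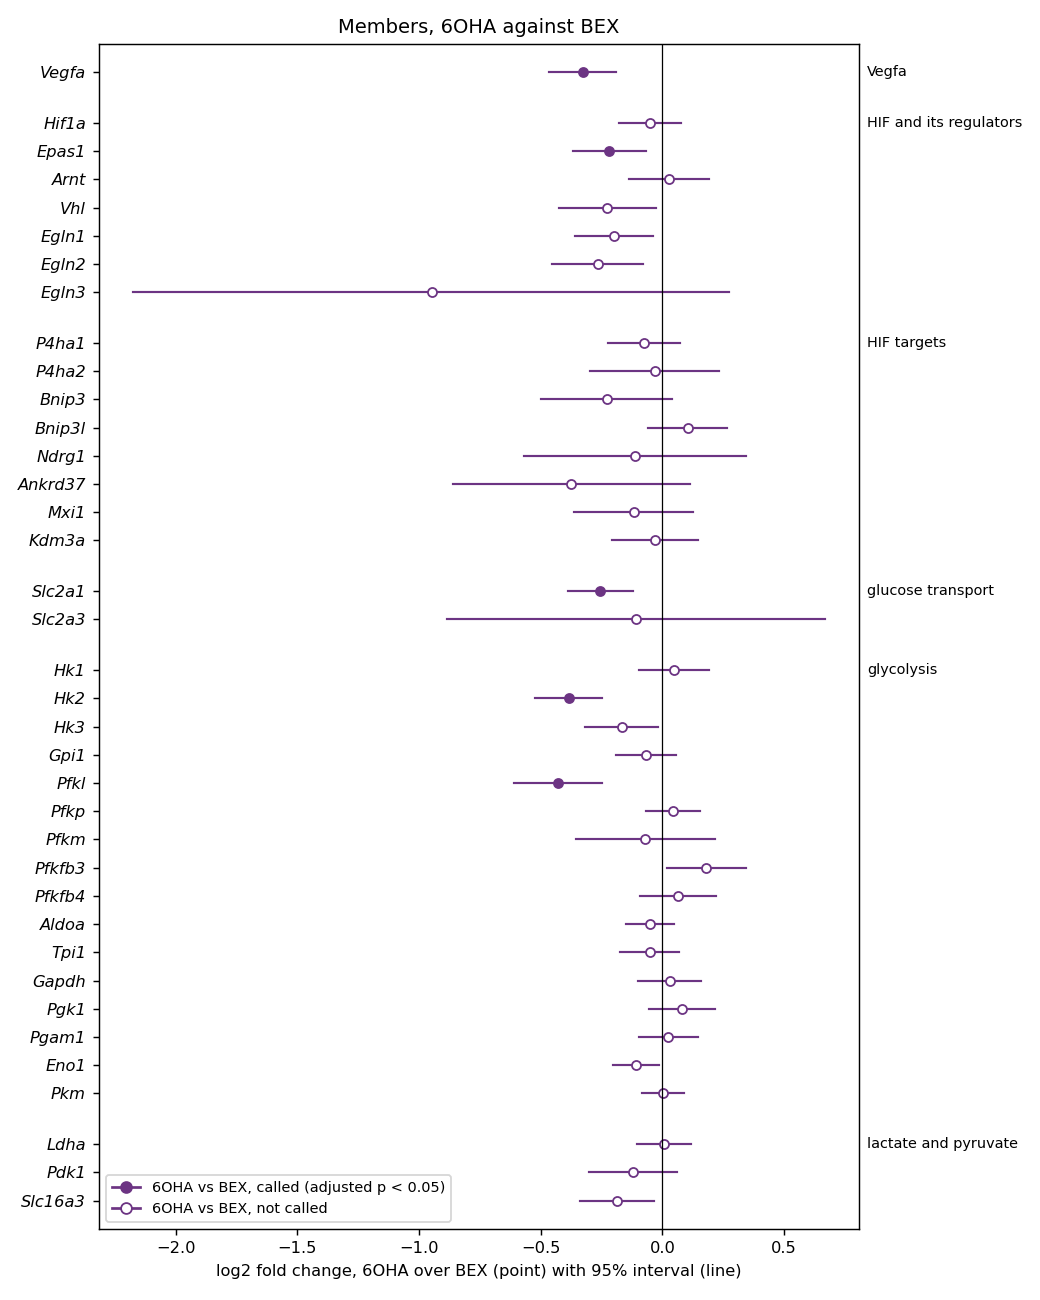
Log2 fold change of 6OHA over BEX for the 37 kept members, grouped by role, with 95% intervals as lines. Filled points were called at an adjusted p under 0.05: Vegfa, Epas1, Slc2a1, Hk2 and Pfkl, all left of 0 and between -0.43 and -0.22.

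Outside the members, of the lipid droplet and nuclear receptor list, Abcg1 (1.12 ± 0.06, adjusted p = 4.53e-08) and Abca1 (0.84 ± 0.05, adjusted p = 1.4e-07) were higher under 6OHA than under BEX. Cpt1a (0.22 ± 0.06, adjusted p = 0.0172) and Plin2 (0.16 ± 0.04, adjusted p = 0.0118) were higher too, and Hilpda was lower under 6OHA (-0.32 ± 0.09, adjusted p = 0.0298). Of the further HIF targets, Mif (-0.42 ± 0.08, adjusted p = 0.00377) and Gys1 (-0.28 ± 0.08, adjusted p = 0.0413) were lower under 6OHA. Kdr (0.20 ± 0.06, adjusted p = 0.0264) and Nrp2 (0.15 ± 0.05, adjusted p = 0.0408) were higher under 6OHA. Atf4 was lower under 6OHA (-0.46 ± 0.06, adjusted p = 0.00012), as were Trib3 (-0.87 ± 0.09) and Sesn2 (-0.72 ± 0.10). In the pentose phosphate pathway, Pgd (-0.22 ± 0.05, adjusted p = 0.00525) and Taldo1 (-0.21 ± 0.06, adjusted p = 0.0235) were lower under 6OHA.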

How the data were processed

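Poly-A RNA libraries (TruSeq Stranded mRNA, per the labels' protocols) were analysed from 3 groups: 6OHA (1), BEX (3) and untreated (1). The authors deposited whole-number read counts, FPKM and TPM per gene on mm10. The deposited counts gave every main test, the TPM deposited by the authors served for levels and alternative tests, and the FPKM deposited by the authors entered no test. The submitters' processing notes list StringTie 2.1.3b, HISAT2 2.1.0, Bowtie2, SAMtools 1.9, Trimmomatic 0.38 and bcl2fastq 2.20.0, and their roles, the annotation and the use of strand are not given in the sources used here.

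All 5 libraries entered 1 edgeR 4.0.16 quasi-likelihood fit (glmQLFit without the legacy method, R 4.3.3) with TMM factors (0.99421 to 1.0041) and filterByExpr (minimum count 10, minimum total 15). The fit had 2 residual and 10.6 prior degrees of freedom. Tests were two-sided, with Benjamini-Hochberg adjustment at 0.05 over 15462 genes. SEs and 95% intervals came from fitted means and dispersions, and can differ from the F test in whether 0 is left out. Limits at 3 counts cover counting error only. The fit was tested on simulated data. Alternatives used DESeq2 1.42.0, limma 3.58.1, other filters, left-out libraries, and offsets from a 5-df spline of GC content and length. Of the table's genes 45679 matched RefSeq GRCm38.p6.

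The 39 members and all lists were chosen with earlier results of these data known. Values per library are given for Vegfa, for members called in any comparison and for HIF regulators. From each other list, up to 4 called genes with the smallest adjusted p in each comparison are named. Exceptions are others where the text says so, Hilpda in each comparison, and all microglia and macrophage markers called against untreated cells. The 5 genes nearest Vegfa by the distance of paired fold changes are also named.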

Additional observations from a re-analysis of the deposited data

How the results depend on the processing

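Over 13 alternatives, 1253 of 1359 values of the 36 kept members other than Vegfa kept their side of the threshold, 34 were called only under the alternative, 69 lost the call and 3 lost it with a change of sign. Of the 1253, 52 also changed sign, none of them called in either fit and with a size of at most 0.11 before the change. The 3 were 6OHA against untreated cells with offsets for GC content and length: Egln2 0.0192, Aldoa 0.0663 and Pkm 0.067, and the cause was not tested. Vegfa against untreated cells kept its call in all alternatives. In 6OHA against BEX it was -0.31 on log2(TPM + 1) (adjusted p = 0.0708) and -0.31 on log2(TPM + 0.1) (adjusted p = 0.0639). The 3 remaining quantities that moved are grouped by comparison.

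For 6OHA against untreated cells, 2285 genes were called, and 785 on log2(TPM + 1), 869 on log2(TPM + 0.1), 1134 without a filter and 1364 with GC and length offsets. Members called numbered 10, and 2 on log2(TPM + 1), on log2(TPM + 0.1) and without a filter, and 6 to 13 with a BEX library left out. The excess of Vegfa over the median HIF target was 2.57, and 2.49 on log2(TPM + 1) and 2.59 with the offsets. For BEX against untreated cells, 2101 genes were called, and 908 on log2(TPM + 1), 975 on log2(TPM + 0.1) and 1216 without a filter, with 13 members, and 8 on log2(TPM + 1). The excess of Vegfa was 2.87, and 2.79 on log2(TPM + 1). For 6OHA against BEX, 1010 genes were called, and 85 on log2(TPM + 1), 144 on log2(TPM + 0.1), 190 without a filter and 871 to 1660 with a BEX library left out. Members called numbered 5, and 0 on both TPM scales, 2 without a filter and 4 to 10 with a BEX library left out (10 without BEX replicate 2). The Vegfa value minus the median HIF target was -0.23, and -0.27 to -0.21 with a BEX library left out and -0.21 with the offsets.

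Of the called genes, 51.3%, 55.6% and 36.7% were higher in these comparisons in turn. The shares were 62.2%, 67.7% and 24.7% on log2(TPM + 1), 62.4%, 70.1% and 25.7% on log2(TPM + 0.1), and 53.6%, 48.2% and 51.7% with the offsets. GC content and length were known for 92.2% of tested genes and for all 37 kept members. No paired analysis was possible because the compared groups share fewer than 2 replicate numbers. A fit of 6OHA and untreated cells alone was not run, since 2 libraries leave no residual degrees of freedom. Members with few counts, such as Egln3 and Slc2a3, had the widest intervals.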
